A study of Mus musculus with 21 samples.

Results

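The genes described here are 10 germline genes, Dazl, Ddx4, Mael, Sycp1, Sycp3, Stk31, Piwil2, Tdrd1, Dppa3 and Khdc3, chosen by symbol from 40838 genes in each of 2 tables of raw read counts. They were measured by poly(A) RNA sequencing in mouse embryonic stem cells (ESCs), in 21 libraries of 8 groups. All groups spent 48 h in a mixed basal medium that contained 0.2 mM pyruvate and dialyzed serum at 10%. In SL the serum medium carried LIF, the cytokine that keeps ESCs self-renewing, and SL2i added inhibitors of the kinases GSK3B and MEK. The first table held cells in SL carrying an empty vector (3 libraries) or LbNOX (3 libraries), the water-forming NADH oxidase of Lactobacillus brevis, which regenerates NAD+. The other held a line labelled chr8A and 2 clones labelled SLC16A1, named for the gene of the monocarboxylate transporter MCT1, each in SL (3 libraries) and in SL2i (2 libraries). The sources used here do not say what chr8A stands for, how the clones were altered or which parental ESC line was used. Each SLC16A1 group is 1 clone. Nothing says that replicates came from separate cultures, so a p-value reflects the variation among these libraries alone, and that variation may be technical.

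In mice these genes act in germ cells, eggs or early embryos. Several carry CpG-rich promoters that gain DNA methylation in the embryo after implantation and are kept off in somatic cells by DNA methyltransferases together with repressor complexes, among them the Polycomb complex PRC1.6, whose subunits MGA, MAX and E2F6 recognize E-box and E2F sequences. Mouse ESCs in LIF with the GSK3B and MEK inhibitors have far less DNA methylation than ESCs in serum. DNA methylation was not measured in these libraries, so the 10 are called germline genes below. Each had reads in all 8 groups and passed the filter on low counts in both tables. That filter was run over all groups of a table, so passing it does not show expression in each group. Tdrd1 in SL2i had only 4 reads in chr8A, 5 in clone 1 and 4 in clone 2.

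The start-site regions of 8 of the 10 genes were matched in RefSeq (mouse GRCm38.p6, 250 bases before to 50 bases after each annotated start). Piwil2 and Dppa3 had no entry. The regions of Tdrd1 and Khdc3, the genes with the largest changes between media, and of Sycp1 and Dazl, those with the smallest, are shown 5′ to 3′ on the gene's strand, with each CpG in capitals. Dazl is at chr17:50293571-50293870 (minus strand), Sycp1 at chr3:102936051-102936350 (minus strand), Tdrd1 at chr19:56825959-56826258 (plus strand, the first of 3 annotated starts) and Khdc3 at chr9:73102148-73102447 (plus strand).
Dazl: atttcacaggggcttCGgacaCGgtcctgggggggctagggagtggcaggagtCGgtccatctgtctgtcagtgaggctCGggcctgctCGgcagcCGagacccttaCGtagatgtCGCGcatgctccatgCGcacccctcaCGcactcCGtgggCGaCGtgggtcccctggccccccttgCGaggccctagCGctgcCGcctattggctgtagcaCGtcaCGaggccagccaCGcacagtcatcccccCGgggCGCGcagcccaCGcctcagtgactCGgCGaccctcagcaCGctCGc
Sycp1: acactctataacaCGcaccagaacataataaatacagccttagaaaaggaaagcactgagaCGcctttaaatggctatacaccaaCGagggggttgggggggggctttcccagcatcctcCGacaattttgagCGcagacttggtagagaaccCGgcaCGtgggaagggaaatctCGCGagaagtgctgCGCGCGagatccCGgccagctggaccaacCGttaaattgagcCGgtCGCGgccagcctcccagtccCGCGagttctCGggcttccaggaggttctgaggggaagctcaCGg
Tdrd1: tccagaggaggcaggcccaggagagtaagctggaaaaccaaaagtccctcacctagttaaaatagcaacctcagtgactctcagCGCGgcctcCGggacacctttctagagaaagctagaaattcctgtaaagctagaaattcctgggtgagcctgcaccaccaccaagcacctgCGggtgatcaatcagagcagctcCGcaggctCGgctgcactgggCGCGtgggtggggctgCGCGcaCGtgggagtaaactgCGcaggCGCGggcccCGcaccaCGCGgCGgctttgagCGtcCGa
Khdc3: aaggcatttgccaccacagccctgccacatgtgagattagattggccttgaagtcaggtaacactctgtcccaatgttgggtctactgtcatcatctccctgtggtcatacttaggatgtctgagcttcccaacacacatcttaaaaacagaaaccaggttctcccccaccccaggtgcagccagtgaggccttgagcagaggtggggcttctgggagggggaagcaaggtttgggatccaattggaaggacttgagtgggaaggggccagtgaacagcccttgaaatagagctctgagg
The Dazl region held 28 CpGs, Sycp1 21, Tdrd1 20 at its first start and Khdc3 0, where the median of 32841 mouse start regions of the same length was 7. The Khdc3 region, the only 1 of the 4 shown without a CpG, belonged to the gene with the largest rise in SL2i. Of the regions not shown, Ddx4 had 38 CpGs, a count reached by 4.95% of all start regions. Tdrd1 had 25 at its second start and 3, below the median and with no CACGTG, at its last. Stk31 had 29 and 28 at its 2 starts, Mael 24 and Sycp3 15. Of the 7 genes whose first region held more CpGs than the median, 2 were higher in SL2i and 5 lower. Over all tested genes in chr8A 36.1% were higher and 36.8% lower. The shares among all genes with CpG-rich start regions were not computed, and a link between CpG count and direction was not tested.

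The E-box CACGTG, which reads the same on both strands, was found in the regions of 6 of 8 genes: Ddx4, Mael, Sycp1, Sycp3, Stk31 and Tdrd1. It occurred in 7.15% of all start regions. Counted from the annotated start, it began at position -29 in Ddx4, -94 in Sycp1, -55 at the first start of Stk31, -11 at the first start of Tdrd1, -223 in Mael, and at -64 and -43 in Sycp3. The E2F-type sequence GCGGGA, searched on both strands, was found in 4 of 8 genes, Ddx4, Mael, Sycp1 and Sycp3, and in 6561 of the 32841 start regions. Both backgrounds are per region, while the 8 genes are counted over all their regions, so the shares are unlike. Counted per gene, 1443 tested genes had CACGTG and 11484 did not, and 4816 had GCGGGA and 8111 did not. The 2 sequences did not overlap in these regions. Of 1443 tested genes with CACGTG, 37.4% rose and 38.5% fell in SL2i in chr8A cells, against 37.2% and 36.5% of 11484 genes without it. Of 4816 tested genes with GCGGGA, 35.4% rose and 41.0% fell, against 38.2% and 34.2% of 8111 genes without it. A match is a description of sequence and not a measured binding site.

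Total counts ran from 16521594 to 30008895 in the LbNOX table, from 15802072 to 30145771 in the SL libraries of the clone table and from 9784408 to 10908368 in the SL2i libraries. Depth and medium therefore cannot be told apart by design, and with all libraries thinned to equal depth the calls between SL2i and SL that were lost were those of Sycp1 in chr8A and clone 2. Slc16a1 itself was read at 198 ± 2.99 CPM (reads per 1000000 after TMM scaling, SD, n = 3) in chr8A, 171 ± 10.4 in clone 1 and 93.5 ± 2.65 in clone 2 in SL, and at 162 ± 6.96, 123 ± 0.732 and 78.6 ± 0.122 CPM in SL2i (n = 2). All 10 pluripotency markers had reads in each group. Summed fibroblast markers, which could report feeder cells, ran from 43.5 to 54.6 CPM in the SL libraries of the clone table and from 4.43 to 6.18 CPM in SL2i, where Col3a1, Col6a1, Dcn and Postn were at 0. Summed markers of a 2-cell-like state, 7 of which were in the table, ran the other way, from 0 to 0.287 CPM in SL and from 8.12 to 13.1 CPM in SL2i. Summed primitive endoderm markers went from between 237 and 246 CPM in chr8A in SL to between 139 and 141 CPM in SL2i, and summed pluripotency markers from between 4081 and 4283 CPM to between 5608 and 5686 CPM. The part of these cell states in the medium results below was not tested, and in bulk RNA fewer cells expressing a gene and less RNA per cell cannot be told apart.

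Levels compared between genes are given per length, as mean CPM per kilobase. The length is the gene length deposited with the counts, 4893 bases for Khdc3, 4996 for Ddx4 and 818 for Dppa3. It need not equal the length of the transcripts present, and the order between genes depends on it. In chr8A cells in SL, Dppa3 stood apart at 133 ± 7.23 CPM per kilobase (SD, n = 3), above 97.6% of tested genes. Mael followed at 7.36 ± 0.704, Sycp3 at 6.81 ± 0.613 and Ddx4 at 5.58 ± 0.409. Piwil2 was at 2.69 ± 0.103, Sycp1 at 2.06 ± 0.224, Dazl at 2.05 ± 0.318, Khdc3 at 1.69 ± 0.0812, Stk31 at 1.35 ± 0.101 and Tdrd1 at 1.17 ± 0.0893. The library ranges of these neighbours in the order overlapped for Mael and Sycp3, for Sycp1 and Dazl, for Dazl and Khdc3, and for Stk31 and Tdrd1, and not for the others. In SL2i the order changed: Dppa3 was still first at 38.5 ± 0.510 CPM per kilobase (SD, n = 2), followed by Khdc3 at 13.95 ± 0.267, Dazl at 3.86 ± 0.191 and Stk31 at 2.75 ± 0.763. Sycp1, Sycp3, Ddx4 and Mael lay together between 1.32 and 1.61, with overlapping ranges. Piwil2 fell to 0.586 ± 0.0197 and Tdrd1 to 0.0340 ± 0.000519, above only 4.79% of tested genes.

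**Figure D1:**
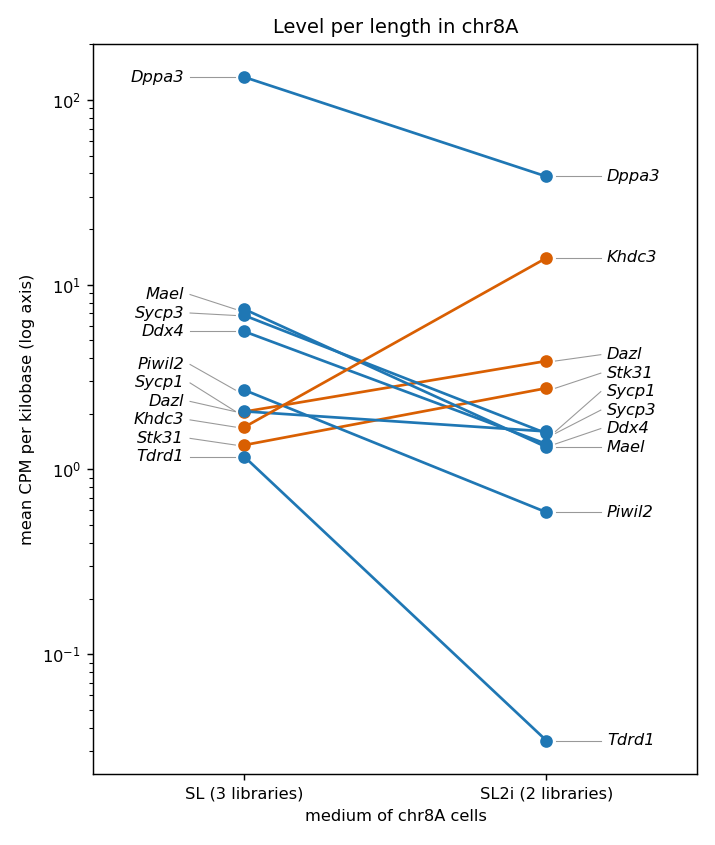
Mean CPM per kilobase (log axis) of the 10 germline genes in chr8A cells in SL (left, 3 libraries) and SL2i (right, 2 libraries), with lines joining the 2 means of a gene, orange where the mean is higher in SL2i and blue where it is lower. Khdc3 moves from 1.69 to 13.95 and Tdrd1 from 1.17 to 0.0340 while Dppa3 stays the highest.

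The comparison of media asks how the inhibitors changed these genes within each line. In all 3 lines the same 3 genes rose in SL2i, Khdc3, Stk31 and Dazl, and the same 7 fell, Tdrd1, Mael, Piwil2, Sycp3, Ddx4, Dppa3 and Sycp1 (edgeR quasi-likelihood test, Benjamini-Hochberg adjusted p under 0.05 over 17178 genes). All 10 were called in chr8A, where 72.8% of all tested genes were, 36.1% higher and 36.8% lower. In clone 1 73.0% of tested genes were called, 35.9% higher and 37.1% lower, and in clone 2 73.1%, 35.8% higher and 37.2% lower, so a count of 10 is not far from the background, and the sizes and directions are the description. The median log2 fold change of the 10 genes was -1.90 in chr8A, -1.92 in clone 1 and -1.87 in clone 2, beside 0.00088, -0.0025 and -0.0072 over all tested genes. Libraries of the 2 media did not overlap for any of the 10 genes in any line, as for 80.8% of tested genes in chr8A, 81.3% in clone 1 and 81.5% in clone 2.

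**Figure D2:**
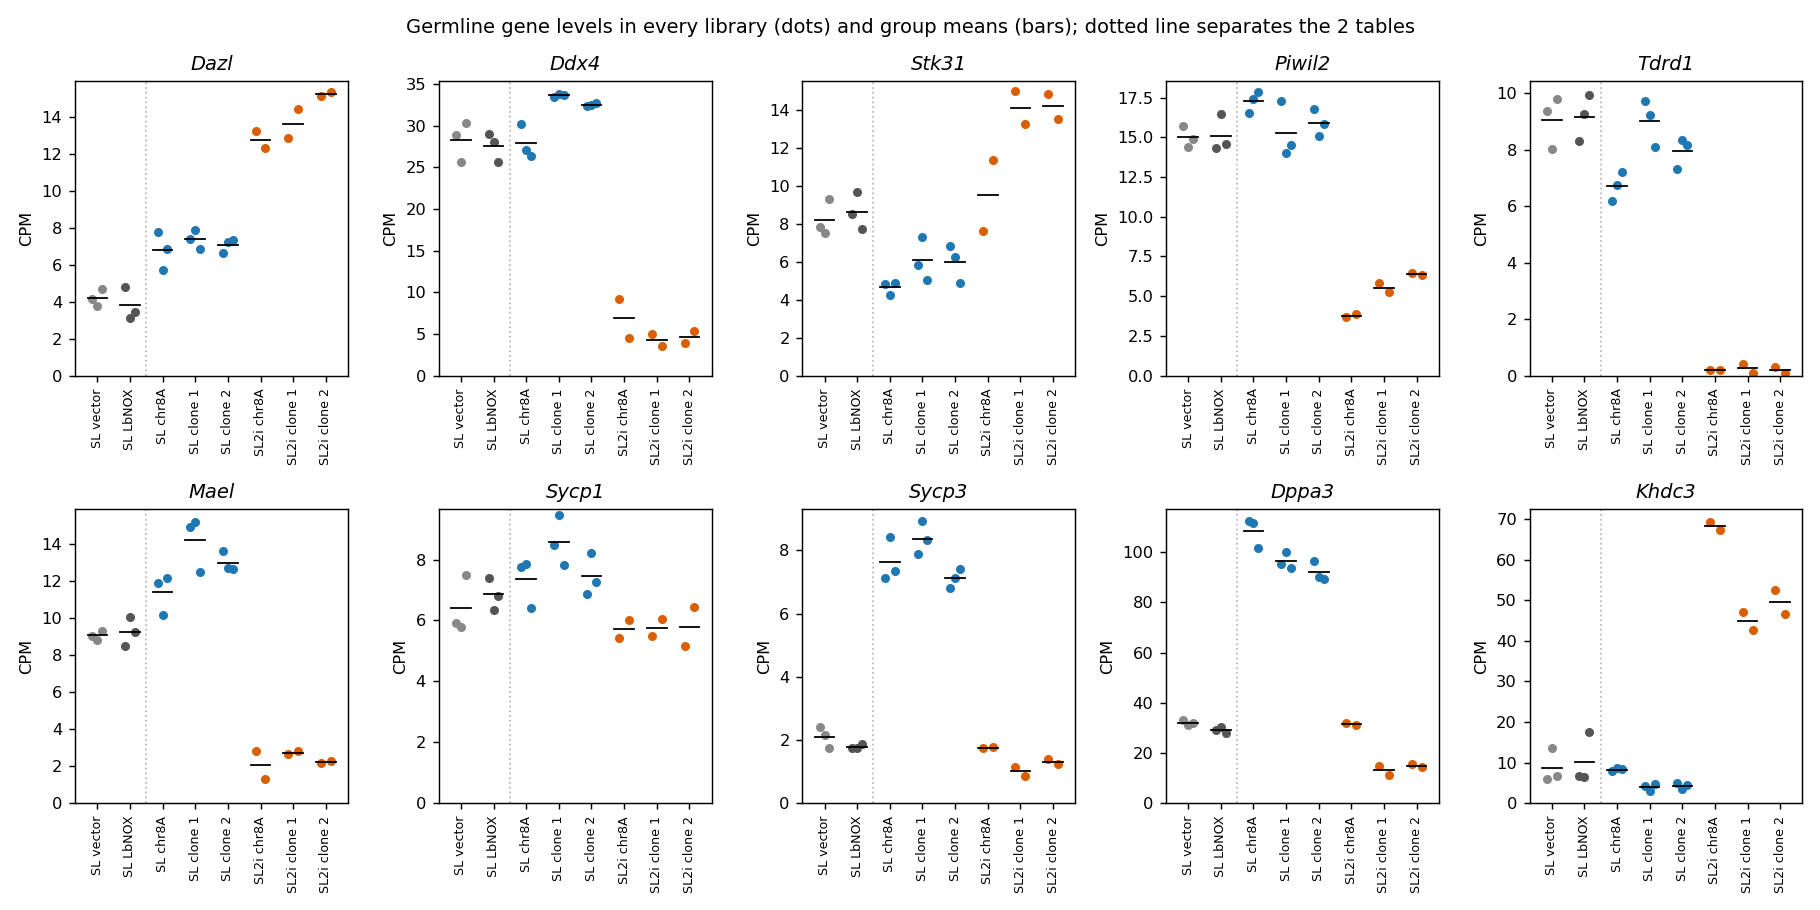
CPM of each germline gene in every library (dots) with the group mean (bar), by group; the dotted line separates the 2 tables, which were normalized separately, and each gene has its own axis from 0. Tdrd1 lies between 6.18 and 9.73 CPM in the SL libraries of the clone table and at or below 0.422 CPM in SL2i, and Khdc3 in those libraries at or below 8.62 CPM in SL and at or above 42.6 CPM in SL2i.

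Of the RNA regulators, Dazl encodes an RNA-binding protein that controls translation in germ cells. Dazl was read at 7.81, 5.71 and 6.89 CPM in the 3 chr8A libraries in SL and at 13.2 and 12.3 CPM in SL2i. Every SL2i library was above every SL library, and the rise was 1.88-fold (log2 fold change 0.91 ± 0.14 SE, edgeR adjusted p = 2.61e-09). It rose by 0.89 ± 0.14 on the log2 scale in clone 1 and by 1.09 ± 0.13 in clone 2. Stk31, a kinase-like protein with a Tudor domain found in germ cells, stood at 4.84, 4.27 and 4.90 CPM in SL and at 7.63 and 11.4 CPM in SL2i in chr8A. Its 2 SL2i libraries lay apart from each other but both above SL, a rise of 2.03-fold (log2 1.02 ± 0.16, edgeR adjusted p = 4.32e-08). The rise was 1.22 ± 0.15 in clone 1 and 1.27 ± 0.15 in clone 2. Ddx4 is the VASA helicase of germ cells and works with the piRNA machinery. It went the other way, from 30.2, 27.1 and 26.4 CPM in SL to 9.18 and 4.54 CPM in SL2i, 4.04-fold lower (log2 -2.01 ± 0.13, edgeR adjusted p = 1.83e-23). SL2i chr8A replicate 1 was the higher library, and without it the log2 fold change was -2.63. In the clones Ddx4 changed by -3.00 ± 0.15 and -2.80 ± 0.14.

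Piwil2, Mael and Tdrd1, the 3 piRNA genes of the 10, fell. The piRNA pathway loads short RNAs onto PIWI proteins to silence transposons in the male germ line: Piwil2 is 1 of its PIWI proteins, Tdrd1 a Tudor scaffold that binds PIWI proteins, and Mael a further factor of the pathway. Piwil2 was at 16.5, 17.4 and 17.8 CPM in chr8A in SL and at 3.67 and 3.85 CPM in SL2i. These tight groups were 4.58-fold apart (log2 -2.20 ± 0.15, edgeR adjusted p = 3.91e-25), and the log2 fold changes in the clones were -1.47 ± 0.15 and -1.30 ± 0.14. Mael was at 11.9, 10.1 and 12.1 CPM in SL and at 2.80 and 1.28 CPM in SL2i, 5.53-fold lower (log2 -2.47 ± 0.20, edgeR adjusted p = 5.44e-21). As for Ddx4, SL2i chr8A replicate 1 was the higher library, and the log2 value without it was -3.16. In the clones Mael changed by -2.37 ± 0.19 and -2.52 ± 0.19, and its SL2i libraries there lay between 2.18 and 2.83 CPM.

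Tdrd1 had the largest fold of the 10. It was read at 6.18, 6.76 and 7.20 CPM in chr8A in SL (507 reads in all) and at 0.193 and 0.197 CPM in SL2i (2 reads in each library). The share of reads was 34.4 times higher in SL, with an exact 95% interval of 13.4 to 127 that covers counting error only. In clone 1 the SL2i libraries held 4 reads and 1 read and the ratio was 35.6 (15.2 to 110). In clone 2 they held 3 reads and 1 read and the ratio was 41.3 (16.1 to 152). The fitted log2 fold changes were -5.05 ± 0.38, -5.12 ± 0.35 and -5.31 ± 0.37 (edgeR adjusted p = 8.98e-23, 1.88e-25 and 3.65e-25). With so few reads the fitted value moved with 1 library, to -6.45 without SL2i clone 1 replicate 1, to -4.40 without its replicate 2 and to -6.30 without SL2i clone 2 replicate 1.

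The 2 synaptonemal complex genes fell by unlike amounts. Sycp3 encodes an axial element protein and Sycp1 the transverse filament of the complex that pairs meiotic chromosomes. Sycp3 was read at 7.14, 8.42 and 7.36 CPM in chr8A in SL and at 1.74 and 1.78 CPM in SL2i, 4.34-fold lower (log2 -2.12 ± 0.22, edgeR adjusted p = 3.26e-15). It changed by -3.04 ± 0.26 in clone 1, where SL2i held 11 and 9 reads, and by -2.44 ± 0.24 in clone 2. Sycp1 was at 7.77, 7.84 and 6.42 CPM in SL and at 5.41 and 6.02 CPM in SL2i. These ranges lie close together, and the fall was 1.28-fold (log2 -0.36 ± 0.17, edgeR adjusted p = 0.0444). The call was lost at equal depth (edgeR adjusted p = 0.0864) and with DESeq2 (adjusted p = 0.0742), in a fit of only the groups compared (edgeR adjusted p = 0.0542), and without SL chr8A replicate 1 or 2 or SL2i chr8A replicate 1 or 2 (edgeR adjusted p = 0.0875, 0.0972, 0.222 and 0.0632). In clone 1 Sycp1 changed by -0.57 ± 0.17 (edgeR adjusted p = 0.0018), and the call stood in the other settings run. In clone 2 it changed by -0.37 ± 0.16 (edgeR adjusted p = 0.035) and lost the call at equal depth (edgeR adjusted p = 0.072), with DESeq2 (adjusted p = 0.0699) and without SL clone 2 replicate 2 or SL2i clone 2 replicate 1 (edgeR adjusted p = 0.131 and 0.326).

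The 2 genes best known from the egg and early embryo moved in opposite directions. Dppa3 (Stella) protects the maternal genome from loss of DNA methylation in the zygote and marks primordial germ cells. Its libraries were at 112, 112 and 102 CPM in chr8A in SL and at 31.8 and 31.2 CPM in SL2i, 3.45-fold lower (log2 -1.79 ± 0.063, edgeR adjusted p = 1.48e-46). In the clones the log2 fold changes were -2.88 ± 0.080 and -2.61 ± 0.076. Khdc3 (Filia) belongs to the subcortical maternal complex of the egg and also acts in genome stability in ESCs. Its chr8A libraries were at 7.85, 8.62 and 8.41 CPM in SL and at 69.2 and 67.3 CPM in SL2i. That was the largest rise of the 10, 8.22-fold (log2 3.04 ± 0.087, edgeR adjusted p = 1.85e-54), followed by 3.47 ± 0.11 in clone 1 and 3.54 ± 0.10 in clone 2.

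**Figure D3:**
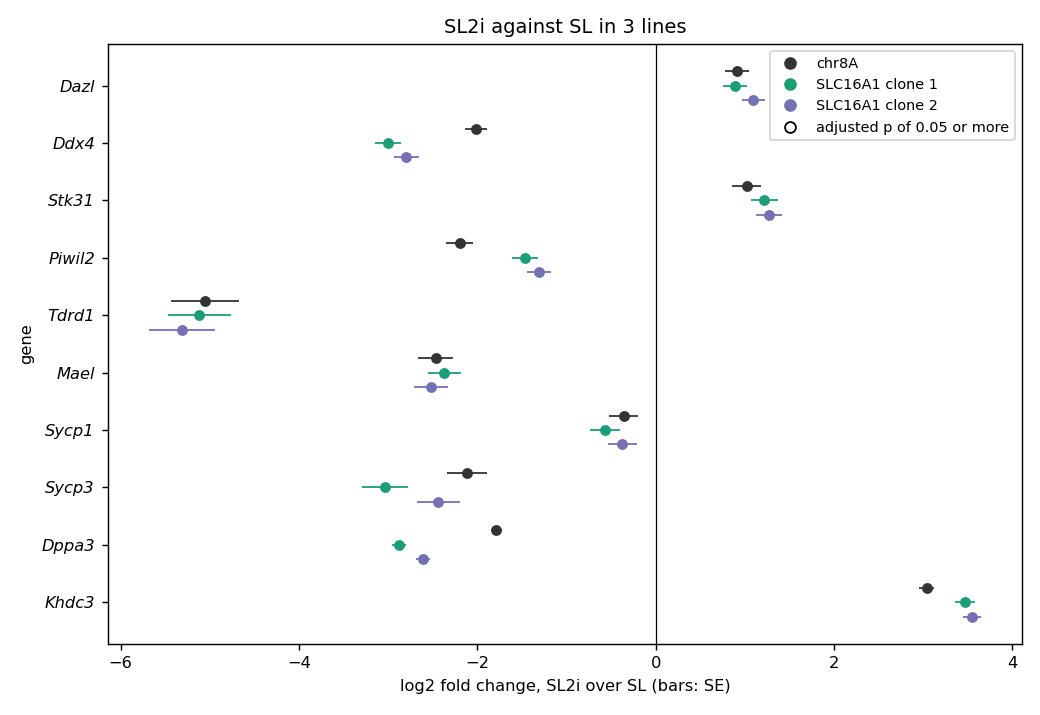
Log2 fold change of SL2i over SL for each germline gene in chr8A and the 2 SLC16A1 clones (points, bars show the SE); all points are filled, since all had an adjusted p under 0.05. The 3 lines give each gene the same direction, from -5.31 for Tdrd1 in clone 2 to 3.54 for Khdc3 in clone 2.

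Sycp3, Khdc3, Dppa3 and Sycp1 share transcript sequence with another gene, and their counts carry that uncertainty. In an older annotation (GENCODE M21, GRCm38), 46.7% of the 30-base words of Sycp3 transcripts also occur in another gene, 36.9% for Khdc3, 30.4% for Dppa3 and 16.6% for Sycp1, and under 1% for the other six. Sycp3 overlaps Chpt1, a phospholipid synthesis gene on the opposite strand, in 660 exon bases. The sources used here do not say whether the counting used strand, and without it the reads of these 2 genes cannot be told apart. Chpt1 rose in SL2i in chr8A (log2 1.01 ± 0.095, edgeR adjusted p = 1.89e-17) while Sycp3 fell. The partners sharing most words with the other three were Gm20509, on the same strand as Khdc3, and the pseudogenes Dppa3-ps and Sycp1-ps1. Sycp1-ps1 had 30 reads in chr8A in SL and 0 in SL2i, beside 553 and 117 reads of Sycp1. No counts were read out for Gm20509 or Dppa3-ps. Other genes named in this report share words too, among them Dppa5a (58.1%), Hdac1 (40.3%), Uhrf1 (24.9%) and Rpl10l (24.5%), while Kit and Tfap2c share 0%. Of the 2-cell-like markers, Zscan4c shares 91.9% and Zscan4d 66.0%.

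The clones were compared with chr8A within each medium. These comparisons share the chr8A libraries, so the 2 clones are given side by side and are not independent of each other. In SL, clone 1 had 5 of 10 genes called, 3 higher and 2 lower, where 16.6% of tested genes were called, 8.83% higher and 7.77% lower. Clone 2 had 3 called, 1 higher and 2 lower, where 26.9% were, 14.3% higher and 12.6% lower. Khdc3 was lower in both clones by the largest amount: 4.18, 3.07 and 4.83 CPM in clone 1 and 4.90, 3.56 and 4.54 CPM in clone 2, against 7.85 to 8.62 CPM in chr8A. No clone library reached the chr8A range, and the log2 differences were -1.04 ± 0.12 (edgeR adjusted p = 9.24e-11) and -0.97 ± 0.11 (edgeR adjusted p = 1.47e-11). Libraries of clone and chr8A did not overlap for 31.7% of tested genes in clone 1 and for 38.7% in clone 2.

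Dppa3 was also lower in both clones in SL, by less. It was at 95.4, 100.1 and 93.8 CPM in clone 1 and at 96.3, 90.1 and 89.5 CPM in clone 2, against 102 to 112 CPM in chr8A (log2 -0.17 ± 0.040 and -0.25 ± 0.039, edgeR adjusted p = 0.000844 and 3.16e-07). Ddx4 was higher, with clone 1 at 33.4 to 33.8 CPM and clone 2 at 32.4 to 32.7 CPM against 26.4 to 30.2 CPM in chr8A (log2 0.27 ± 0.070 and 0.23 ± 0.067, edgeR adjusted p = 0.00277 and 0.00729). The clone 2 call was lost without SL chr8A replicate 3 (edgeR adjusted p = 0.0734). The piRNA genes Tdrd1 and Mael were higher in clone 1, by 0.43 ± 0.12 and 0.32 ± 0.098 on the log2 scale (edgeR adjusted p = 0.00766 and 0.0139). Both calls depended on single libraries. Tdrd1 was not called without SL chr8A replicate 1 or SL clone 1 replicate 1 (edgeR adjusted p = 0.0514 and 0.0778). Mael was not called without SL chr8A replicate 2 or SL clone 1 replicate 1 or 2 (edgeR adjusted p = 0.124, 0.0912 and 0.106), at equal depth (edgeR adjusted p = 0.104) or with DESeq2 (adjusted p = 0.059). In clone 2 their differences were 0.25 ± 0.12 and 0.18 ± 0.095 and were not called.

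Stk31 missed the threshold narrowly in SL in both clones, at 0.37 ± 0.14 and 0.33 ± 0.13 on the log2 scale (edgeR adjusted p = 0.0548 and 0.0547). It passed without SL clone 1 replicate 3 (edgeR adjusted p = 0.024) and without SL clone 2 replicate 3 (edgeR adjusted p = 0.0121), the lowest library of each clone. Piwil2 lay at -0.17 ± 0.084 and -0.13 ± 0.080 and was called only in clone 1 without its replicate 1 (edgeR adjusted p = 0.0422). Dazl, Sycp1 and Sycp3 were not called in either clone in SL in any setting run. Their 95% intervals on the log2 scale ran from -0.11 to 0.36, from -0.0083 to 0.46 and from -0.10 to 0.36 in clone 1, and from -0.15 to 0.29, from -0.19 to 0.26 and from -0.32 to 0.13 in clone 2.

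In SL2i both clones had 4 of 10 genes called against chr8A, where 22.4% of tested genes were called for clone 1 (10.4% higher and 12.1% lower) and 20.6% for clone 2 (9.74% higher and 10.8% lower). In clone 1 the calls were 1 higher and 3 lower, and in clone 2 they were 2 higher and 2 lower. Dppa3 stood at 14.9 and 11.4 CPM in clone 1 and at 15.4 and 14.6 CPM in clone 2, against 31.8 and 31.2 CPM in chr8A. All 4 clone libraries were below both chr8A libraries (non-overlap held for 56.7% of tested genes in clone 1 and 55.2% in clone 2), 2.41-fold in clone 1 (log2 -1.27 ± 0.11, edgeR adjusted p = 1.37e-17) and 2.10-fold in clone 2 (log2 -1.07 ± 0.10, edgeR adjusted p = 8.36e-15). Khdc3 was lower again, at 47.0 and 42.6 CPM in clone 1 and at 52.6 and 46.5 CPM in clone 2 against 69.2 and 67.3 CPM (log2 -0.61 ± 0.088 and -0.46 ± 0.086, edgeR adjusted p = 1.74e-08 and 1.11e-05). These 2 genes were thus lower than in chr8A in both clones and both media, and their calls stood in all settings run.

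The other SL2i calls were lost without 1 chr8A library, and the Stk31 and Ddx4 differences shrank without it. SL2i chr8A replicate 1 held 95 reads of Ddx4, 29 of Mael and 79 of Stk31, against 46, 13 and 115 in replicate 2. Its CPM relative to replicate 2 was 2.02 for Ddx4, 2.18 for Mael and 0.672 for Stk31, and between 0.898 and 1.07 for the other seven genes. Stk31 was higher in the clones, at 14.99 and 13.3 CPM and at 14.9 and 13.5 CPM (log2 0.57 ± 0.17 and 0.58 ± 0.17, edgeR adjusted p = 0.00782 and 0.00681). Without that library the values were 0.32 and 0.32 (edgeR adjusted p = 0.324 and 0.317), and the calls were also lost without replicate 1 of either clone (edgeR adjusted p = 0.1 and 0.0773). Ddx4 was lower in clone 1 (log2 -0.71 ± 0.23, edgeR adjusted p = 0.0148, with overlapping libraries) and not called in clone 2 (log2 -0.56 ± 0.22, edgeR adjusted p = 0.0587). Without that library these were -0.10 and 0.044, and the clone 1 call was also lost without SL2i clone 1 replicate 2 (edgeR adjusted p = 0.285) and in a fit of only the groups compared (edgeR adjusted p = 0.0782). The clone 2 value was called without SL2i chr8A replicate 2 or SL2i clone 2 replicate 2 (edgeR adjusted p = 0.000482 and 0.0401) and with DESeq2 (adjusted p = 0.0426). Piwil2 was higher in clone 2, at 6.44 and 6.34 CPM against 3.67 and 3.85 CPM (log2 0.76 ± 0.21, edgeR adjusted p = 0.00477). Without that library the Piwil2 value was 0.73, close to the value with it, and missed the threshold (edgeR adjusted p = 0.0537). In clone 1 it stood at 5.81 and 5.27 CPM and missed the threshold (log2 0.55 ± 0.22, edgeR adjusted p = 0.0624).

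**Figure D4:**
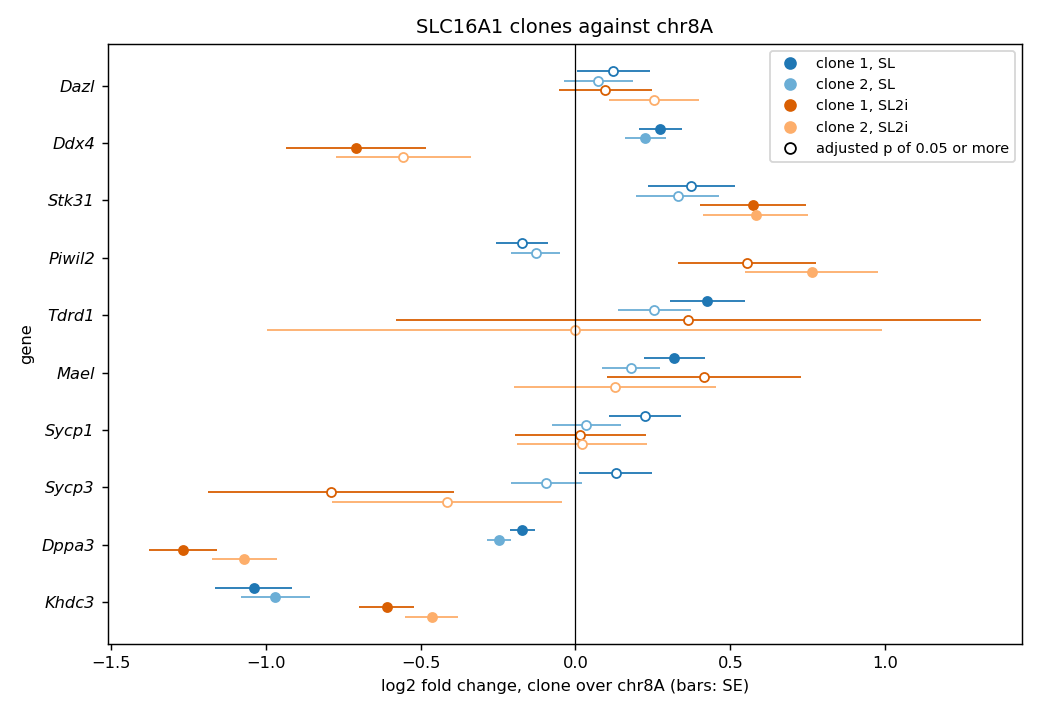
Log2 difference of each SLC16A1 clone from chr8A in SL (blue) and SL2i (orange) for each germline gene (points, bars show the SE; open points had an adjusted p of 0.05 or more). Khdc3 and Dppa3 lie below 0 in all 4 comparisons, with Dppa3 at -0.17 and -0.25 in SL and at -1.27 and -1.07 in SL2i.

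Clone 2 was not distinguished from clone 1 at any of the 10 genes in either medium (edgeR, 0 called, and 0 with an unadjusted p under 0.05; DESeq2 also called 0). Of all tested genes 4.40% were called in SL and 0.157% in SL2i. The log2 differences lay between -0.22 and 0.069 in SL and between -0.37 and 0.37 in SL2i. The Khdc3 interval in SL ran from -0.21 to 0.35. Intervals were wide for Tdrd1 in SL2i, from -2.24 to 1.51, where the clones held 5 and 4 reads.

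Whether the clones answered the medium differently from chr8A was tested as the difference of the 2 medium effects in 1 model. In each clone 4 of 10 genes differed, Dppa3, Ddx4, Piwil2 and Khdc3, 2 with a positive and 2 with a negative difference (clone minus chr8A), where 17.0% of tested genes were called for clone 1 (7.78% positive and 9.24% negative) and 16.9% for clone 2 (7.69% positive and 9.18% negative). Dppa3 fell more in the clones, with differences of -1.09 ± 0.12 and -0.82 ± 0.11 on the log2 scale (edgeR adjusted p = 7.72e-13 and 6.69e-09), and this call stood in all settings run. Ddx4 also fell more, with differences of -0.98 ± 0.24 and -0.78 ± 0.23 (edgeR adjusted p = 0.00124 and 0.0095). Without SL2i chr8A replicate 1 the Ddx4 differences were -0.37 and -0.17 (edgeR adjusted p = 0.475 and 0.779), and they were not called without SL2i clone 1 replicate 2 or SL2i clone 2 replicate 1 (edgeR adjusted p = 0.071 and 0.146). Piwil2 fell less, with differences of 0.73 ± 0.24 and 0.89 ± 0.23 (edgeR adjusted p = 0.0222 and 0.00231). The clone 1 value of Piwil2 was not called without SL2i chr8A replicate 1 or 2 or SL2i clone 1 replicate 1 (edgeR adjusted p = 0.0993, 0.0598 and 0.118), and the clone 2 value was called in all settings run.

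Khdc3 rose more in the clones, by 0.43 ± 0.15 and 0.51 ± 0.14 on the log2 scale (edgeR adjusted p = 0.0414 and 0.00618). In clone 1 the Khdc3 difference was not called with DESeq2 (adjusted p = 0.0588), with no filter on low counts (edgeR adjusted p = 0.054), or without SL chr8A replicate 2 or 3, SL clone 1 replicate 1 or 2, SL2i chr8A replicate 1 or 2, or SL2i clone 1 replicate 1 (edgeR adjusted p from 0.0538 to 0.262). In clone 2 it was not called at equal depth (edgeR adjusted p = 0.1) or without SL clone 2 replicate 2 or SL2i clone 2 replicate 1 (edgeR adjusted p = 0.0794 and 0.0602). Its level nevertheless stayed below that of chr8A in either clone and medium.

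LbNOX was compared with the empty vector in SL. None of the 10 genes was called (edgeR adjusted p of 1 for each, 0 with an unadjusted p under 0.05, and 0 with DESeq2), where 0.0372% of 16119 tested genes, or 6 genes, were called. Ddx4 was at 28.9, 25.6 and 30.3 CPM with the vector and at 28.9, 28.1 and 25.6 CPM with LbNOX. Its 95% interval on the log2 scale ran from -0.21 to 0.13. Piwil2 had an interval from -0.19 to 0.21, Tdrd1 from -0.24 to 0.28, Mael from -0.21 to 0.27, Stk31 from -0.20 to 0.36, Sycp1 from -0.19 to 0.41, Dazl from -0.55 to 0.26 and Sycp3 from -0.71 to 0.22. Changes beyond these bounds are outside the 95% intervals, and changes within them are not excluded. Dppa3 was at 33.0, 31.2 and 31.8 CPM with the vector and at 29.3, 30.5 and 27.8 CPM with LbNOX. Its libraries did not overlap, as for 9.64% of tested genes, and the log2 difference was -0.13 ± 0.066 (unadjusted p = 0.0664 by the edgeR model).

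Khdc3 spread most among the libraries of this table. It was at 5.96, 13.5 and 6.77 CPM with the vector and at 6.70, 6.36 and 17.5 CPM with LbNOX, so 1 library of each group was high and the groups overlapped (log2 0.24 ± 0.58). Without vector replicate 2 the log2 value was 0.70, without LbNOX replicate 3 it was -0.40, and without both it was 0.051, and none of these was called. The same 2 libraries were the lowest for the oocyte gene Nlrp4f (11.01 and 11.99 CPM, against 18.4 to 20.3 in the other four), the pluripotency factor Esrrb (320 and 301 CPM, against 379 to 427) and the germ cell regulator Prdm14 (9.47 and 9.03 CPM, against 13.1 to 16.9). These genes were picked by name, and how many tested genes put these 2 libraries at an extreme was not counted. Over all tested genes, the deviations of these 2 libraries from their group means correlated at 0.280. That was the highest value between a vector and an LbNOX library. The part of these shared differences in the Khdc3 values was not tested.

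Further genes came from lists chosen with earlier results of these data known. Of 45 other meiotic, piRNA and spermatogenic genes, 40 passed the filter, and in chr8A 15 rose and 16 fell in SL2i (median log2 -0.19), a split close to the 36.1% and 36.8% of all tested genes. The direction differed within the piRNA pathway: Tdrd5, a Tudor protein of the pathway, went from 19.8 to 0.583 CPM (log2 -5.06 ± 0.23, edgeR adjusted p = 3.51e-39), while Tdrd12, another, went from 68.9 to 133 CPM (log2 0.95 ± 0.047, edgeR adjusted p = 1.7e-35). Hsf2bp, a meiotic recombination factor, rose by 1.48 ± 0.055 and Rpl10l, a ribosomal protein gene of spermatocytes, by 2.69 ± 0.080. Of 18 oocyte and maternal effect genes 7 passed the filter, and 6 rose and 1 fell. Ooep, a partner of Khdc3 in the subcortical maternal complex, rose from 53.9 to 145 CPM (log2 1.43 ± 0.047, edgeR adjusted p = 3.03e-50), and Nlrp4f from 17.0 to 64.5 CPM (log2 1.92 ± 0.071, edgeR adjusted p = 4.47e-46). Zp3, a protein of the egg coat, rose by 2.08 ± 0.16 and Sohlh2, a transcription factor of oocytes and spermatogonia, by 1.58 ± 0.19. Of 8 regulators of primordial germ cells 5 rose and 3 fell: Prdm14 rose by 3.70 ± 0.093, Kit, the receptor of stem cell factor, by 2.98 ± 0.043 and Dppa5a by 1.11 ± 0.054, and Tfap2c fell by 1.19 ± 0.063 on the log2 scale.

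**Figure D5:**
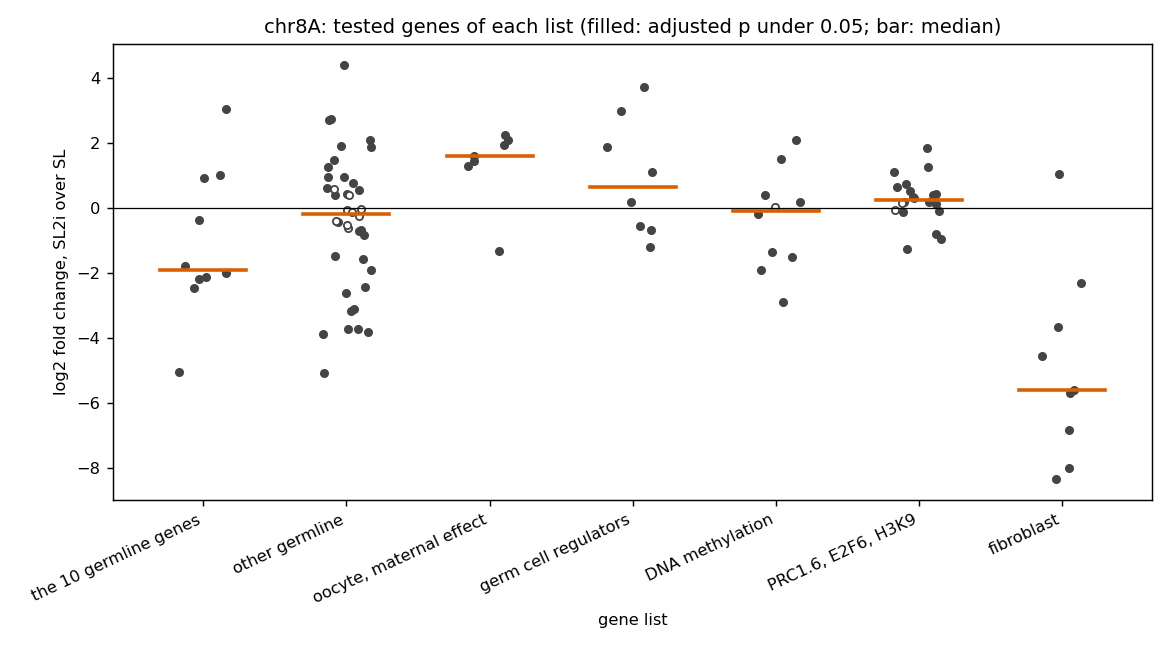
Log2 fold change of SL2i over SL in chr8A for the tested genes of 7 lists (points; filled points had an adjusted p under 0.05; orange bars are list medians; horizontal scatter within a list carries no value). The 10 germline genes have a median of -1.90, the 40 other germline genes -0.19 and the 7 oocyte and maternal effect genes 1.58.

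Among 10 writers, cofactors and erasers of DNA methylation, 4 rose and 5 fell in SL2i in chr8A. Over all tested genes 36.1% rose and 36.8% fell, which is the background for each count between media in this paragraph. The de novo methyltransferases Dnmt3b and Dnmt3a and their cofactor Dnmt3l fell (log2 -2.91 ± 0.037, -1.92 ± 0.047 and -1.52 ± 0.037, edgeR adjusted p = 1.94e-87, 4.66e-62 and 5.49e-62). Transcripts of the maintenance methyltransferase Dnmt1 rose by 0.41 ± 0.031, of its cofactor Uhrf1 by 1.51 ± 0.030 and of the oxidase Tet2 by 2.09 ± 0.042. Tet1 did not pass the test (log2 0.022 ± 0.052, edgeR adjusted p = 0.714). Of 20 genes of PRC1.6, E2F6 and H3K9 repression, 13 rose and 5 fell. E2f6 fell by 0.95 ± 0.078 on the log2 scale, Mga rose by 0.42 ± 0.035 and Pcgf6 by 0.13 ± 0.050. The deacetylase Hdac1 rose by 1.85 ± 0.039, Hdac2 by 0.74 ± 0.037, the heterochromatin protein gene Cbx3 by 1.26 ± 0.059 and Wdr5 by 1.11 ± 0.032. Of 10 pluripotency markers 6 rose and 4 fell: Nanog rose by 2.14 ± 0.031, Esrrb by 1.58 ± 0.032 and Pou5f1 by 0.38 ± 0.031, and Lin28a and Utf1 fell (log2 -2.54 ± 0.038 and -1.98 ± 0.042). In the clones against chr8A in SL2i, Dnmt3b was higher by 0.65 ± 0.041 and 0.61 ± 0.041 and Dnmt3l by 0.96 ± 0.041 and 0.92 ± 0.041. Of the 10 DNA methylation genes, 5 were higher, 2 lower and 3 not called in clone 1 in SL2i. In clone 2 these counts were 4, 1 and 5. Sohlh2 was lower in both clones in SL2i (log2 -1.77 ± 0.25 and -1.32 ± 0.23). Tdrd12 was lower in both clones in SL2i, at 75.2 and 74.3 CPM against 133 CPM in chr8A, and in SL, at 49.1 and 51.1 CPM against 68.9 CPM (log2 -0.49 ± 0.045 and -0.44 ± 0.042 in SL). Of the 40 other germline genes tested, 6 were higher and 5 lower in clone 1 in SL2i. For clone 2 the numbers were 7 and 4. All tested genes, compared with chr8A in SL2i, are the background for these counts and those of the DNA methylation genes. For clone 1, 10.4% of them were called up and 12.1% down. The split for clone 2 was 9.74% up, 10.8% down.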

How the data were processed

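Poly(A) RNA of mouse ESCs was sequenced in 21 libraries, prepared with a stranded kit per the labels' protocols. The authors deposited raw read counts per gene in 2 tables, made with DRAGEN 3.10, GRCm39 and featureCounts of Subread, per the submitters' processing notes; which strand setting was used is not stated. No column of per-sample values was left unused.

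Each table was fitted separately, since they were deposited as separate tables. Genes passing filterByExpr were fitted in edgeR 4.0.16 (R 4.3.3, limma 3.58.1) with TMM factors, 1 mean per group and robust quasi-likelihood tests, Benjamini-Hochberg adjusted over 17178 genes in the clone table and 16119 in the LbNOX table. An adjusted p under 0.05 was called. CPM are TMM-scaled, and errors of levels are SD and of log2 fold changes SE. Exact 95% intervals of read ratios cover counting error only, as reads carried no molecular identifiers.

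The 10 genes and all lists were chosen with earlier results of these data known. By rule, up to 4 genes were named from each list, those with the smallest adjusted p between media in chr8A, with Dnmt1, Uhrf1, Dnmt3a, Dnmt3b, Dnmt3l, Tet1, Tet2, Prdm14, Pou5f1, E2f6, Pcgf6 and Mga. Fibroblast, primitive endoderm and 2-cell-like markers are given as sums, with the fibroblast markers at 0 named, instead of by this rule. Genes sharing sequence with a described gene were named for that reason. Alternatives were RLE factors, other filters, DESeq2 1.42.0, a replicate block, only the groups compared, equal depth and leaving out each library. Start regions come from a RefSeq table of GRCm38.p6, not the build of the counts, and no coordinates were converted.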

Additional observations from a re-analysis of the deposited data

Results flagged for a closer look

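The medium effect differed between a clone and chr8A for 4 of the 10 germline genes in each clone, by a test of the difference itself (edgeR quasi-likelihood, adjusted p under 0.05). Over all tested genes 17.0% were called for clone 1 and 16.9% for clone 2. For Dppa3 the log2 difference was -1.09 in clone 1 and -0.82 in clone 2, and it was called in each of 17 alternatives for both clones. For Ddx4 it was -0.98 and -0.78, but -0.37 and -0.17 without SL2i chr8A replicate 1, where neither was called. For Piwil2 it was 0.73 and 0.89, and for Khdc3 0.43 and 0.51. In clone 1 the Piwil2 call was lost in 3 of the 17 alternatives and the Khdc3 call in 9. In clone 2 the Piwil2 call was lost in 0 and the Khdc3 call in 3. The 2 clones share the chr8A libraries, so the 8 values are not independent.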

How the results depend on the processing

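Of 1537 recomputed values of the 10 genes, 1481 kept their side of the threshold (58 changed sign while called in neither setting), 46 lost the call, 10 gained it and 0 reversed while called. Leaving out 1 library at a time moved the number of genes called from 4 to between 2 and 4 for clone 1 against chr8A in SL2i, from 4 to between 2 and 5 for clone 2, and, for the difference in medium effect, from 4 to between 1 and 4 in clone 1 and between 2 and 4 in clone 2. The lowest values of the first 2, and of clone 1's medium difference, came without SL2i chr8A replicate 1. Calls over all tested genes also fell when 1 library was left out. In SL2i they went from 3853 to as low as 2572 for clone 1 and from 3531 to as low as 2358 for clone 2. For the difference in medium effect they went from 2925 to as low as 2010 in clone 1 and from 2898 to as low as 2142 in clone 2. The count between media stayed at 10 in clone 1 and between 9 and 10 in chr8A and clone 2.

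Same-numbered libraries shared little deviation: of 36 same-numbered pairs 1 had a correlation of deviations over 0.1 (range -0.159 to 0.127). The pairs reuse the same libraries and the groups are small, so these values cannot show whether the numbers mark shared cultures or batches. With a replicate block Stk31 was called in SL in both clones (edgeR adjusted p = 0.0486 and 0.0443), and Ddx4 in clone 2 in SL2i (edgeR adjusted p = 0.048). The numbers called under the block were 6 for clone 1 and 4 for clone 2 in SL, and 5 for clone 2 in SL2i. Over all tested genes the block moved the calls for clone 2 from 4618 to 4810 in SL and from 3531 to 3640 in SL2i.

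Over all genes, calls for LbNOX moved from 6 to 0 without vector replicate 3 and to 49 without vector replicate 2 and LbNOX replicate 3, a choice made after seeing the data. At equal depth calls fell from 2850 to 1848 for clone 1 and from 4618 to 2934 for clone 2 in SL. Between the clones they ran from 371 to 1223 around 756 in SL and from 11 to 43 around 27 in SL2i. The cause was not tested. Tdrd1 in SL2i rests on 1 to 4 reads a library.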

Other observations

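Levels in SL differed between the 2 tables, which were normalized separately, so no test joins them. Mean Dppa3 was 32.0 CPM with the vector and 109 CPM in chr8A, and Sycp3 2.10 and 7.64 CPM. Stk31 went the other way, at 8.22 and 4.67 CPM. In the 2 LbNOX-table libraries with the highest Khdc3, vector replicate 2 and LbNOX replicate 3, Dnmt3b was also the highest (894 and 831 CPM, against 736 to 816 CPM in the other libraries). Ooep was the lowest there only narrowly (52.1 and 51.3 CPM, against 53.3 to 58.9 CPM), and whether that order exceeds counting error was not tested. Dnmt3b and Ooep were picked by name. Over all tested genes the deviations of these 2 libraries from their group means correlated at 0.280.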
